A study of Mus musculus with 59 samples.

Results

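The genes described here are 10 members of the slower wave of activity-induced transcription: Egr3, Nptx2, Nr4a2, Nr4a3, Inhba, Scg2, Pcsk1, Dusp4, Fosl2 and Gadd45b. They were read by symbol from a table of 18088 genes, and all 10 were found and passed the filter on low values that left 16599 genes for testing. The list was drawn up with earlier results of these libraries known. Egr3 and Nptx2, which name it, are taken as chosen by their change with lithium in mutant mice. Values from that comparison are therefore given as a description, with no test read from them, and p-values of Egr3 and Nptx2 elsewhere are not independent support.

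Poly(A) RNA was sequenced from the prefrontal cortex of 59 C57BL/6J mice of both sexes on postnatal day 25. They carried 1 knock-in copy of Shank3 (HT) or none (WT), a gene for a scaffold protein beneath glutamate receptors. Vehicle, fluoxetine or lithium reached the pups through the milk of the dam between postnatal days 3 and 24. The 6 arms were WT vehicle (10 mice), WT fluoxetine (10), WT lithium (9), HT vehicle (10), HT fluoxetine (10) and HT lithium (10), with 5 females and 5 males in each except WT lithium, which had 4 females and 5 males. Fluoxetine raises synaptic serotonin by blocking its transporter, and lithium, used in bipolar disorder, inhibits glycogen synthase kinase 3. The labels name neither the litter nor the dose, so p-values count pups as independent. They call the allele a knock-in, and the column names of the deposited table carry a further code that the labels do not explain. In bulk tissue, fewer cells of a type and less RNA per cell cannot be told apart.

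Libraries held between 22984556 and 35969254 reads. Slc17a7, a marker of cortical excitatory neurons, was present in every library. Markers of the olfactory bulb, which adjoins the frontal cortex, varied between libraries. An index, the mean of 8 such markers after each was divided by its average level, ran from 0.0991 to 4.16 with a median of 0.502. Of these 8, Eomes was at 0 in 3 libraries and Tbx21 in 2. An index over 2.5 or a mitochondrial share under 5% set 6 libraries apart: WT fluoxetine females 1, 2 and 4, HT lithium females 4 and 5 and HT vehicle male 4. These limits did not use choroid plexus markers. The summed normalized count of 5 such markers reached 52725 in an HT vehicle female, against a median of 118 in that group. Outside that group the highest sum was 345, in an HT vehicle male. No HT vehicle female was set apart, and the part of choroid plexus tissue was not tested. The index is given beside the genes that moved with it.

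When a neuron fires, calcium entry and the MAP kinase pathway activate transcription factors already present, and these switch on rapid immediate early genes such as Fos and Arc. A slower wave follows, which holds further transcription factors together with secreted and synaptic proteins that act on the connections of the cell. Among the 10 genes, Egr3, Nr4a2, Nr4a3 and Fosl2 encode transcription factors. Nptx2, Inhba, Scg2 and Pcsk1 encode secreted proteins or a protease that processes them, and Dusp4 and Gadd45b act on kinase signalling and the stress response.

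Promoter sequences from RefSeq (GRCm38.p6) were found for 7 of the 10: Scg2, Nr4a2, Nr4a3, Fosl2, Gadd45b, Inhba and Pcsk1. They are shown as a description, and their relation to the correlations between mice given below was not tested. The cyclic AMP response element TGACGTCA, searched on both strands from 250 bases before to 50 after the RefSeq start, was found in 2 of the 7, Scg2 and Pcsk1, against 1.55% of 32851 promoters. Its core TGACG, which the full element contains on either strand, was found in 4 of the 7, against 17.8%. The MEF2 motif was found in Nr4a2 and Inhba, against 2.92%, and the EGR motif GCGGGGGCG in Fosl2, against 2.57%. No match to the AP-1 motif TGANTCA (6.75% of promoters), to the NR4A motif AAAGGTCA (1.34%) or to the CArG box (1.47%) was present in the 7 windows. In the sequences, read 5′ to 3′ along the gene's own strand and drawn from those windows, capitals mark the response element, its core or the MEF2 motif.
Scg2: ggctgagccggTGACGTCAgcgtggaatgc
Pcsk1: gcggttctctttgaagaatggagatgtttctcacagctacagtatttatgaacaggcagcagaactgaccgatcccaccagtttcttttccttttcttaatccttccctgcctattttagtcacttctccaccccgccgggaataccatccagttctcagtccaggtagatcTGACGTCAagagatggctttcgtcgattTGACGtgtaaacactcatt
Nr4a3: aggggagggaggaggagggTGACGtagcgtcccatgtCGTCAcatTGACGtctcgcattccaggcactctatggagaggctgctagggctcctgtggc
Nr4a2: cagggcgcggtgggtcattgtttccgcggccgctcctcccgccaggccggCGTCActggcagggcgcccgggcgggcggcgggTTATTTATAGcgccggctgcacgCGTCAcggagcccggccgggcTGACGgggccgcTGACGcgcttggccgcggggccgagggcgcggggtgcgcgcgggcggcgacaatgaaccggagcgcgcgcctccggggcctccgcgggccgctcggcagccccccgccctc
Inhba: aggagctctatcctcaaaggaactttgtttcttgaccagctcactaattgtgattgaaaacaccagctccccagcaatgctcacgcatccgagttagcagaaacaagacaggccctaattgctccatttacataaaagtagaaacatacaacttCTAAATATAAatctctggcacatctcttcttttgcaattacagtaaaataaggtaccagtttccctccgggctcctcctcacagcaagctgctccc
The Scg2 window (chr1:79440076-79440105, minus strand) has the full element 68 to 61 bases before the RefSeq start. GENCODE places the start of Scg2 94 bases upstream of the RefSeq one, so by that annotation, which gave the gene positions, the element lies within the transcribed gene. The Pcsk1 sequence (chr13:75089607-75089825, plus strand) has it 78 to 71 bases before the start. The Nr4a3 sequence (chr4:48045055-48045152, plus strand) and the Nr4a2 sequence (chr2:57124004-57124253, minus strand) each hold the core several times, and Nr4a2 also has a MEF2 match 167 to 158 bases before its start. The Inhba sequence (chr13:16011601-16011850, plus strand) has a MEF2 match 96 to 87 bases before its start and no core. A match describes letters and was not tested as a binding site.

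Values are normalized counts, a gene's reads divided by the size factor of its library. Divided by the length of the longest annotated transcript, the level in WT vehicle mice was highest for Scg2, at 2761 ± 511 normalized counts per kilobase (SD, n = 10). Egr3 followed at 805 ± 82.6, Nptx2 at 489.6 ± 97.8 and Pcsk1 at 297 ± 45.5 per kilobase. Gadd45b stood at 233 ± 54.8, Fosl2 at 183 ± 47.8, Nr4a2 at 176 ± 75.5 and Nr4a3 at 171 ± 52.3 per kilobase. Each neighbouring pair of these differed by less than the larger SD of the pair. Dusp4 (74.0 ± 14.3) and Inhba (68.9 ± 20.5) were lowest per kilobase and also overlapped. Within WT vehicle mice, the coefficient of variation of the normalized count was smallest for Egr3 (10.3%) and largest for Nr4a2 (42.8%).

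**Figure D1:**
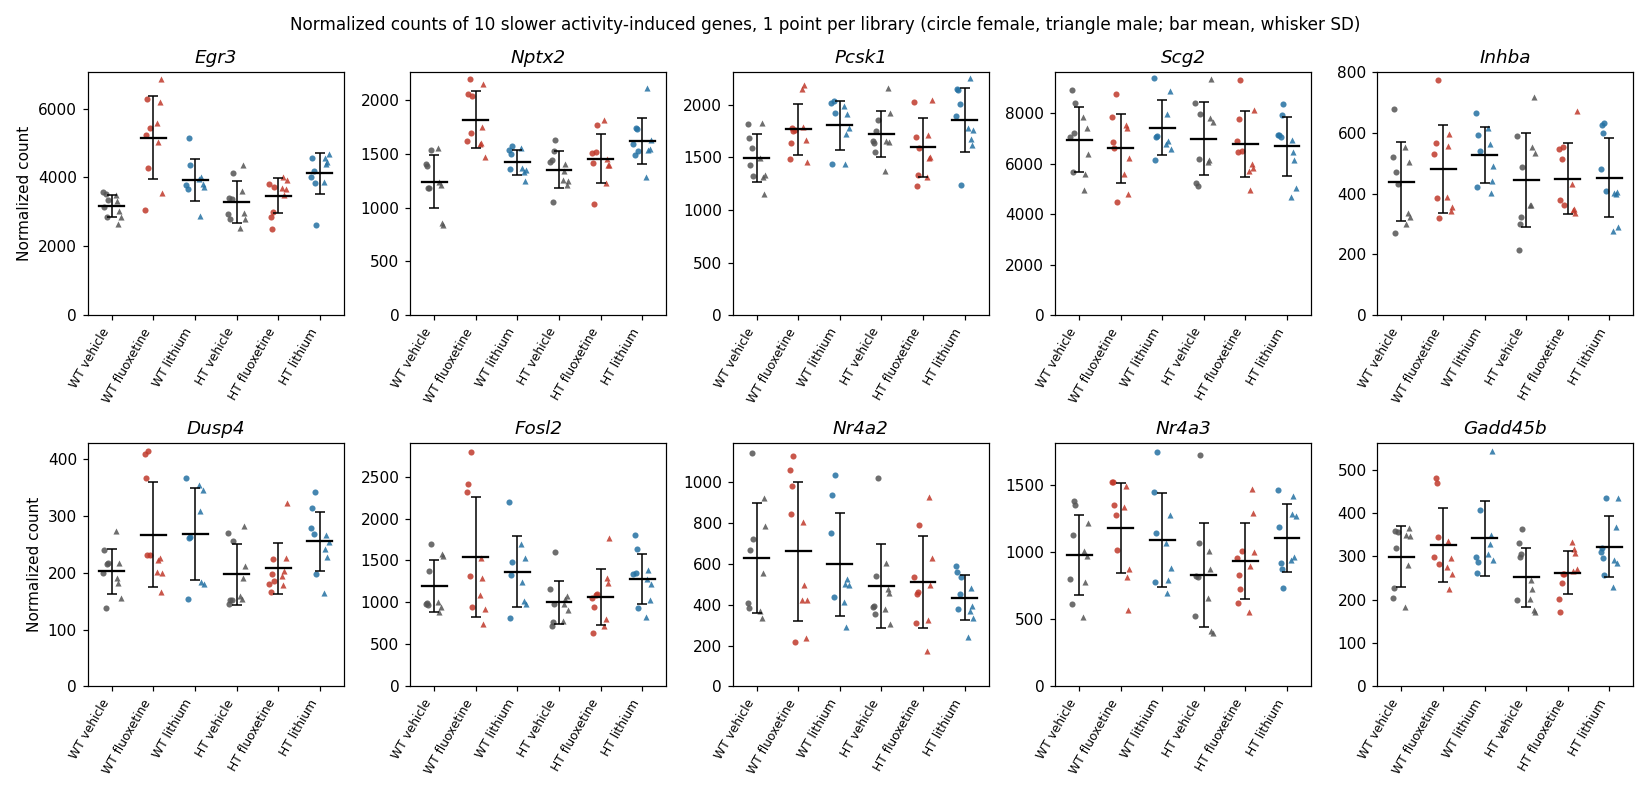
Normalized count (vertical axis, starting at 0) of each of the 10 genes in the 6 arms (horizontal axis), with 1 point per library, circles for females and triangles for males, a bar for the mean and a whisker for the SD (n = 10, or 9 in WT lithium). Egr3 ran from 3062 to 6849 in WT fluoxetine mice and from 2652 to 3588 in WT vehicle mice, while Scg2 and Inhba overlapped across all 6 arms.

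Fluoxetine in WT mice was the comparison in which the list separated. Egr3 and Nptx2 rose, and the other 8 genes did not pass the test. Egr3 is a zinc finger transcription factor induced downstream of NMDA receptor and MAP kinase signalling, and its gene lies on chromosome 14 (70077203 to 70082614, plus strand). Nptx2 encodes neuronal pentraxin 2, a secreted protein that clusters AMPA receptors at excitatory synapses, and its gene lies on chromosome 5 (144545902 to 144557478, plus strand).

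Egr3 was at 3062, 4286, 5233, 5446 and 6278 normalized counts in the 5 WT fluoxetine females. In the 5 WT fluoxetine males it was at 3552, 5041, 5576, 6186 and 6849. The 10 WT vehicle mice ran from 2652 through a median of 3219 to 3588. The arms overlapped through 1 female and 1 male, and the other 8 of 10 treated mice stood above the highest vehicle mouse. The mean was 5151 ± 1210 with fluoxetine (SD, n = 10) and 3173 ± 325 with vehicle, a log2 change of 0.67 ± 0.11 (SE, 95% interval 0.45 to 0.88, limma adjusted p = 0.000257). The low female was the library WT fluoxetine female 1, 1 of the 6 set apart, and without those 6 libraries the Egr3 change was 0.82.

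Nptx2 was at 1620, 1696, 2039, 2063 and 2198 normalized counts in WT fluoxetine females and at 1474, 1590, 1606, 1757 and 2157 in WT fluoxetine males. WT vehicle mice ran from 843 through a median of 1228 to 1560. All treated mice were above the vehicle median, and 9 of 10 were above the highest vehicle mouse. The mean was 1820 ± 267 against 1242 ± 248 (SD, n = 10 each), a log2 change of 0.57 ± 0.09 (SE, 95% interval 0.38 to 0.75, limma adjusted p = 0.000257). Among all tested genes 5.66% passed in this comparison, and 3.54% passed as higher, against 2 of the 10. Both genes passed in each sex alone: Egr3 was higher by 0.53 in females (limma adjusted p = 0.0432) and 0.80 in males (0.0027), and Nptx2 by 0.52 (0.00856) and 0.61 (0.0178). The sex by fluoxetine interaction did not pass for Egr3 (-0.27, limma adjusted p = 0.444) or for Nptx2 (-0.10, 0.776).

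Each of the 14 alternative settings and each of the 20 fits without 1 library left Egr3 and Nptx2 past the threshold. Across those 20 fits the change ran from 0.614 to 0.743 for Egr3 and from 0.516 to 0.627 for Nptx2. With the olfactory bulb index as a covariate it was 0.65 and 0.56. Oligodendrocyte markers moved in the same comparison: 3 of 6 were lower, among them Mbp and Mog, and their summed normalized count ran from 53076 to 170414 with fluoxetine and from 84818 to 250020 with vehicle. Their part in the Egr3 and Nptx2 results was not tested. The mitochondrial share ran from 5.53% to 7.53% with fluoxetine and from 5.15% to 8.83% with vehicle. Over all libraries Nptx2 had a weak negative relation to that share (r = -0.304, rho = -0.37, permutation p = 0.00573 and 0.00677, adjusted 0.0344 and 0.0406, r = -0.409 without the 2 farthest).

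The other 8 genes did not pass with fluoxetine in WT mice. Pcsk1, the prohormone convertase that cuts neuropeptide precursors in dense core vesicles (chromosome 13, 75089826 to 75134861, plus strand), came nearest. Its normalized count ran from 1459 through 1756 to 2186 with fluoxetine and from 1147 through 1459 to 1829 with vehicle, so the arms overlapped although all 10 treated mice were above the vehicle median. The change was 0.24 ± 0.10 (SE, limma adjusted p = 0.132). Removing a trend on GC content brought Pcsk1 to 0.28 with a limma adjusted p of 0.0285.

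Dusp4, a nuclear phosphatase that switches off MAP kinases (chromosome 8, 34807297 to 34819894, plus strand), differed by 0.35 ± 0.15 (SE, limma adjusted p = 0.168). Fosl2, an AP-1 subunit of the Fos family (chromosome 5, 32135801 to 32157842, plus strand), differed by 0.26 ± 0.19 (0.452). In both the difference was larger in females, at 0.68 for Dusp4 and 0.63 for Fosl2, against 0.02 and -0.10 in males, and the sex by fluoxetine interaction did not pass (limma adjusted p = 0.154 and 0.215). The WT fluoxetine females were also the group with the highest bulb index, at a median of 2.53 against 1.21 in WT vehicle females. Without the 6 libraries the change was 0.12 for Dusp4 and -0.08 for Fosl2. With the bulb index as a covariate it was 0.46 and 0.38 instead, both past the threshold (limma adjusted p = 0.000309 and 0.0367). For both genes the 2 alternatives moved the value in opposite directions, and the cause was not tested.

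The remaining 5 were Nr4a3 (0.27), Inhba (0.13), Gadd45b (0.13), Nr4a2 (-0.03) and Scg2 (-0.08), with limma adjusted p-values between 0.4801 and 0.9729. The sign of 4 of these turned under at least 1 alternative setting: Nr4a2, Inhba, Scg2 and Gadd45b. The median change of the 10 genes was 0.25, and 8 of 10 were above 0, beside a median of -0.01 and 47.9% above 0 over all tested genes.

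Other activity genes gave a wider frame for the same comparison. Of 15 rapid immediate early genes, which include Fos, Arc, Npas4 and Egr1, 1 rose and 14 did not pass. The one that rose was Maff, a small Maf transcription factor, at 0.62 ± 0.19 (SE, limma adjusted p = 0.0347). Of 24 other later activity genes, 3 rose: Sorcs3, a sorting receptor, by 0.42, the kinase Pim1 by 0.49 and Plat, tissue plasminogen activator, by 0.21. The median change was 0.06 for the rapid list and 0.16 for the later list. Among partners of the secreted members, none of 4 pentraxins and AMPA receptor subunits, none of 8 dense core vesicle genes and none of 11 activin pathway genes passed with limma.

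In HT mice given the same drug, none of the 10 genes passed the test. The HT vehicle libraries used here, in the genotype by fluoxetine interaction and in the vehicle comparison of the genotypes also entered the comparison by which Egr3 and Nptx2 were chosen. Egr3 ran from 2499 through 3676 to 4008 normalized counts with fluoxetine and from 2534 through 3171 to 4362 with vehicle. Nptx2 ran from 1040 through 1437 to 1817 and from 1052 through 1377 to 1630. In both genes the ranges of the 2 arms overlapped, and the median of each arm lay within the range of the other. The log2 change was 0.08 ± 0.11 for Egr3 (SE, 95% interval -0.14 to 0.30, limma adjusted p = 0.813) and 0.10 ± 0.09 for Nptx2 (-0.09 to 0.28, 0.7302). No gene of the list passed with edgeR or DESeq2 either, where 75 and 198 of all genes passed. With limma 0 of the 10 had an unadjusted p under 0.05, against 1933 of all 16599 genes. After adjustment 0.277% of all genes passed with limma. The largest difference among the 10 was that of Nr4a3, at 0.24 ± 0.21 (SE, limma adjusted p = 0.691).

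The difference between the genotypes in the response to fluoxetine did not pass when tested itself. The genotype by fluoxetine interaction was -0.58 for Egr3 (95% interval -0.89 to -0.27, limma adjusted p = 0.765) and -0.47 for Nptx2 (-0.73 to -0.21, 0.882). Pcsk1 followed at -0.36 (-0.64 to -0.08, 0.948). These 3 had an unadjusted p under 0.05, none passed with limma, edgeR or DESeq2, and 0% of all genes passed. The adjustment runs over 16599 genes.

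Under fluoxetine, Egr3 was lower in HT than in WT mice by a log2 value of -0.54 ± 0.11 (SE, 95% interval -0.76 to -0.32). No HT mouse reached the WT median, at means of 3472 ± 507 and 5151 ± 1210 (SD, n = 10 each). This did not pass with limma (adjusted p = 0.123), and 0% of all genes passed. It passed with edgeR (adjusted p = 0.0369), DESeq2 (0.00033), the bulb index as covariate (0.0163) and without the 6 libraries (0.00181), and in 3 of 20 fits without 1 library. Over all genes, 1 passed with edgeR and 19 with DESeq2. Nptx2 was lower by -0.32 ± 0.09 (SE, limma adjusted p = 0.199), with 2 of 10 HT mice above the WT median. Of the 10 genes, 9 had values below 0 and 5 had an unadjusted p under 0.05, and the one above 0 was Scg2, at 0.04. The median difference over all tested genes was 0.0017. Those 5 were Egr3, Nptx2, Dusp4, Fosl2 and Gadd45b, and 1883 of all 16599 genes had an unadjusted p under 0.05. In females alone Dusp4, Fosl2, Gadd45b and Nr4a3 differed by -0.75, -0.93, -0.71 and -0.70, and in males alone by 0.12, 0.03, 0.11 and 0.04. The median bulb index was 2.53 in WT and 0.513 in HT fluoxetine females, and 0.24 in WT and 0.43 in HT fluoxetine males, and WT fluoxetine females hold 3 of the 6 libraries set apart. This comparison shares its WT fluoxetine libraries with the one against vehicle above, so the values are not separate evidence.

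**Figure D2:**
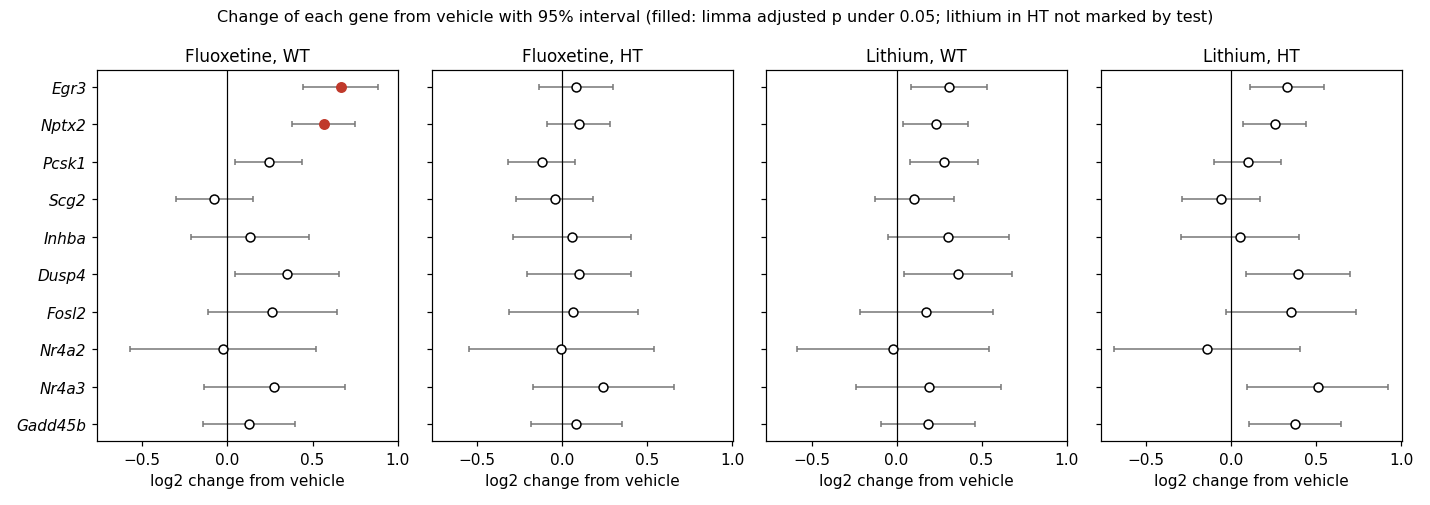
Log2 change from vehicle (horizontal axis, with 95% interval) of each gene (vertical axis) for fluoxetine and lithium in WT and HT mice, over 9 or 10 mice an arm; filled points passed the limma test, and lithium in HT mice is not marked by a test. Egr3 and Nptx2 are filled at 0.67 and 0.57 under fluoxetine in WT mice and open at 0.08 and 0.10 in HT mice.

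Under vehicle, no difference between HT and WT mice passed the test for the 10 genes. Egr3 was at 3292 ± 605 in HT and 3173 ± 325 normalized counts in WT mice (SD, n = 10 each), a log2 difference of 0.04 ± 0.11 (SE, 95% interval -0.18 to 0.26, limma adjusted p = 0.986). Nptx2 differed by 0.14 ± 0.09 (-0.04 to 0.33, 0.819). The lowest unadjusted p was that of Pcsk1, at 1719 ± 217 against 1495 ± 229, a difference of 0.21 ± 0.10 (SE, limma adjusted p = 0.759). None of the 10 passed with limma, edgeR or DESeq2, where 0, 0 and 6 of all genes passed. With limma 1 of the 10 had an unadjusted p under 0.05, as did 1074 of all 16599 genes.

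Lithium in WT mice is the lithium comparison that shares no library with the one that chose the genes. Egr3 ran from 2867 through 3799 to 5135 normalized counts with lithium and from 2652 through 3219 to 3588 with vehicle. Of the 9 treated mice, 8 stood above the highest vehicle mouse, and WT lithium male 2 stood below the vehicle median. The means were 3920 ± 607 (SD, n = 9) and 3173 ± 325 (SD, n = 10), a log2 change of 0.31 ± 0.11 (SE, 95% interval 0.08 to 0.53, limma adjusted p = 0.0600).

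Pcsk1 was nearest to the threshold, at 1804 ± 232 (SD, n = 9) against 1495 ± 229 (n = 10), a change of 0.28 ± 0.10 (SE, limma adjusted p = 0.0577). Nptx2 differed by 0.23 ± 0.10 (limma adjusted p = 0.106), and all 9 treated mice were above the vehicle median although only 1 was above the highest vehicle mouse. Dusp4 differed by 0.36 ± 0.16 (0.123) and Inhba by 0.30 ± 0.18 (0.273). Fosl2, Nr4a3, Gadd45b and Scg2 lay between 0.11 and 0.19, and Nr4a2 was at -0.02.

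None of the 10 passed with limma or edgeR in this comparison, where 12.8% of all genes passed with limma. With limma 4 of the 10 had an unadjusted p under 0.05, as did 4435 of all 16599 genes. With DESeq2, 2390 of all genes passed, among them Egr3 (adjusted p = 0.0352) and Pcsk1 (0.044). Without WT lithium male 2, Egr3 and Pcsk1 also passed with limma, and leaving out WT lithium female 2 or WT vehicle female 1, male 1 or male 2 let 1 or 2 genes pass. The median bulb index was 0.743 with lithium and 1.18 with vehicle, and with it as a covariate Pcsk1, Dusp4 and Inhba passed. The genes' median change was 0.21, with 9 of 10 above 0, beside 49% above 0 over all genes. The WT lithium and WT fluoxetine comparisons share their vehicle mice, so their values are not independent of each other.

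Of 15 rapid immediate early genes, 1 passed with lithium in WT mice, Ier2, which fell by 0.61 (limma adjusted p = 0.0215). Their median change was -0.26, with 11 of 15 below 0, and the other 14 did not pass. Of the 24 other later activity genes, 4 rose, among them Plat (0.32), Pim1 (0.51) and Vgf (0.47), a secreted neuropeptide precursor. Of 11 activin pathway genes, Smad3 and Smad4, which carry the activin signal, rose by 0.31 and 0.15 (limma adjusted p = 0.00413 and 0.00727). Under lithium in HT mice Smad3 was at 0.24 and Smad2 at -0.16. Of 8 dense core vesicle genes, Vgf rose and Scg5, the chaperone of a prohormone convertase, fell by 0.24. Jund, an AP-1 partner of Fosl2, fell by 0.40 in a list of 4 tested genes. Mapk3 was at -0.17 in a list of 6 kinases and phosphatases. Over all genes 12.8% passed, so no pathway is read from these.

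Lithium in HT mice is described without a test. Egr3 ran from 2621 through 4288 to 4684 normalized counts with lithium and from 2534 through 3171 to 4362 with vehicle, and 5 of 10 treated mice stood above the highest vehicle mouse. The mean was 4119 ± 605 against 3292 ± 605 (SD, n = 10 each), higher by 0.33 on the log2 scale. Nptx2 ran from 1286 through 1571 to 2112 with lithium and from 1052 through 1377 to 1630 with vehicle, higher by 0.26. Gadd45b, a stress-inducible protein linked to DNA demethylation (chromosome 10, 80930073 to 80932204, plus strand), was at 322.5 ± 69.4 against 251.5 ± 68.2, higher by 0.38.

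In this comparison 20.3% of all genes passed with limma, and 10.9% as higher. Egr3, Nptx2 and Gadd45b were the 3 of the list past that threshold, which the choice of the genes fixed in part, so nothing is read from the count. Just inside the threshold were Nptx2 and Gadd45b, and just outside were Dusp4 (0.39) and Nr4a3 (0.51). Fosl2 was at 0.35, Pcsk1 at 0.10, Inhba at 0.05, Scg2 at -0.06 and Nr4a2 at -0.14. Marker lists also differed there: the median bulb index was 0.256 with lithium and 0.712 with vehicle, none of 8 bulb markers passed, and 3 of 5 microglia markers passed as higher (Csf1r, C1qa and Tmem119). Markers of other cells passed too, with Cux2, Pvalb, Aldh1l1 and Flt1 higher and Foxp2, Gnb4 and Lxn lower. With lithium in WT mice the microglia marker Cx3cr1 was lower instead, at -0.26 (limma adjusted p = 0.0311). The part of these markers was not tested beyond the fit with the bulb index.

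Set side by side, the lithium change was 0.31 in WT and 0.33 in HT mice for Egr3, and 0.23 and 0.26 for Nptx2. The genotype by lithium interaction contains the lithium change in HT mice by which Egr3 and Nptx2 were chosen, so no test of it is read for these 2 genes. For the other 8 genes the interaction lay between -0.25 (Inhba) and 0.32 (Nr4a3), and none passed with limma, edgeR or DESeq2. Of these 8 genes 0 had an unadjusted p under 0.05 with limma, against 2020 of all 16599 genes. After adjustment 0.00602% of all genes passed with limma, 2 genes with edgeR and 34 with DESeq2. HT and WT mice under lithium were compared on HT libraries that the choice had also used. As a description, Egr3 stood at 4119 ± 605 in HT (SD, n = 10) and 3920 ± 607 normalized counts in WT mice (n = 9), and Nptx2 at 1621 ± 216 and 1425 ± 118. Of the other 8 genes none passed with limma, edgeR or DESeq2, where 0, 0 and 37 of all genes passed. With limma 0 of these 8 had an unadjusted p under 0.05, against 1839 of all 16599 genes.

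Ordered by mean, the Egr3 arms ran WT fluoxetine (5151), HT lithium (4119), WT lithium (3920), HT fluoxetine (3472), HT vehicle (3292) and WT vehicle (3173). For Nptx2 the order was WT fluoxetine (1820), HT lithium (1621), HT fluoxetine (1456), WT lithium (1425), HT vehicle (1356) and WT vehicle (1242). WT fluoxetine was first and WT vehicle last in both. Over the 10 genes, none of the 50 gaps between neighbouring arms in such an order exceeded the larger SD of the pair, so no arm stood apart from its neighbour beyond the spread between mice.

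Mice of the same group differed among themselves in a structured way. After the mean of each of the 12 groups was removed, 14 of 45 pairs of the 10 genes correlated over the 59 libraries (Pearson r, permutation within groups, adjusted p under 0.05), and all 14 were positive. The smallest p that 100000 permutations can give is 1e-05. For each such pair, the other 16598 tested genes were ranked by their r with either gene. The share with a higher r than the partner ran from 0.0361% (Nr4a2 as partner of Nr4a3) to 17.1% (Nr4a2 as partner of Scg2). It was 9.19% for Fosl2 as partner of Inhba. No count over all gene pairs is given, so 14 of 45 is a description. By eye, chosen after the values were seen, the pairs fall into 3 sets.

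The first set is Egr3 with Nptx2 and Pcsk1. Egr3 and Pcsk1 had r = 0.621 (rho = 0.575, permutation p = 1e-05 and 4e-05, adjusted 4.5e-05 and 0.00015), and r = 0.602 without the 2 farthest libraries. Egr3 and Nptx2 had r = 0.528 (rho = 0.558, permutation p = 1e-05 and 3e-05, adjusted 4.5e-05 and 0.000135), and r = 0.497 without the 2 farthest. Nptx2 and Pcsk1 had r = 0.324 (rho = 0.325, permutation p = 0.0233 and 0.0207), which did not pass (adjusted p = 0.0673 and 0.0622). Both genes that rose with fluoxetine in WT mice are in this set.

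The second set is Inhba, Scg2, Dusp4 and Fosl2. Inhba encodes the subunit of activin A (chromosome 13, 16011851 to 16031621, plus strand), and Scg2 encodes secretogranin II, a dense core vesicle protein cut into neuropeptides (chromosome 1, 79434669 to 79440120, minus strand). Inhba and Scg2 had r = 0.812, Inhba and Dusp4 0.802, Scg2 and Dusp4 0.759, Dusp4 and Fosl2 0.745, Scg2 and Fosl2 0.687 and Inhba and Fosl2 0.619, each with a permutation p of 1e-05 (adjusted 4.5e-05). The rho of these 6 pairs lay between 0.627 and 0.804, and r without the 2 farthest libraries between 0.606 and 0.797.

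All 4 genes of the second set moved with the olfactory bulb index. Against the log2 index, group means removed, r was 0.858 for Inhba, 0.815 for Dusp4, 0.759 for Scg2 and 0.724 for Fosl2, with rho between 0.722 and 0.852 (permutation p = 1e-05, adjusted 7.5e-05 over 30 relations). Without the 2 farthest libraries r was 0.853, 0.799, 0.759 and 0.687. The index did not pass for Egr3 (r = -0.129, rho = -0.134, permutation p = 0.465 and 0.392, adjusted 0.872 and 0.619) or Nptx2 (r = -0.015, rho = -0.0284, permutation p = 0.909 and 0.842, adjusted 0.948 and 0.945). Markers of excitatory neurons ran the other way, at r = -0.818 for Scg2, -0.741 for Inhba, -0.716 for Dusp4 and -0.612 for Fosl2 (rho = -0.804, -0.705, -0.759 and -0.598, permutation p = 1e-05, adjusted 0.0001 over 180 relations).

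With the index removed by a line within groups, r fell to 0.48 for Inhba and Scg2, 0.343 for Inhba and Dusp4 and -0.00905 for Inhba and Fosl2. It was higher than before for Nr4a3 and Fosl2 (0.875, from 0.573) and for Fosl2 and Gadd45b (0.702, from 0.228). For Egr3 and Nptx2 it was 0.531, and for Egr3 and Pcsk1 0.676. The number of pairs that passed was 10 of 45 after this step.

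**Figure D3:**
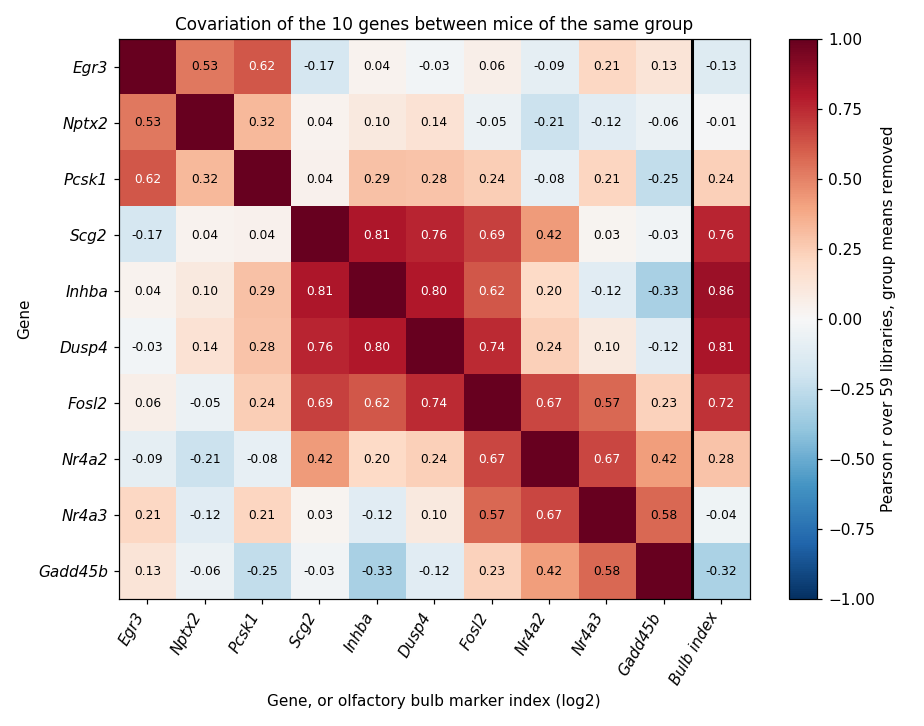
Pearson r over 59 libraries, group means removed, between each pair of the 10 genes and, right of the black line, between each gene and the log2 olfactory bulb index; red is positive and blue negative. Inhba, Scg2, Dusp4 and Fosl2 form a red square with r from 0.619 to 0.812 and a bulb index r of 0.724 or more, while Egr3 and Nptx2 stand at -0.129 and -0.015 against the index.

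**Figure D4:**
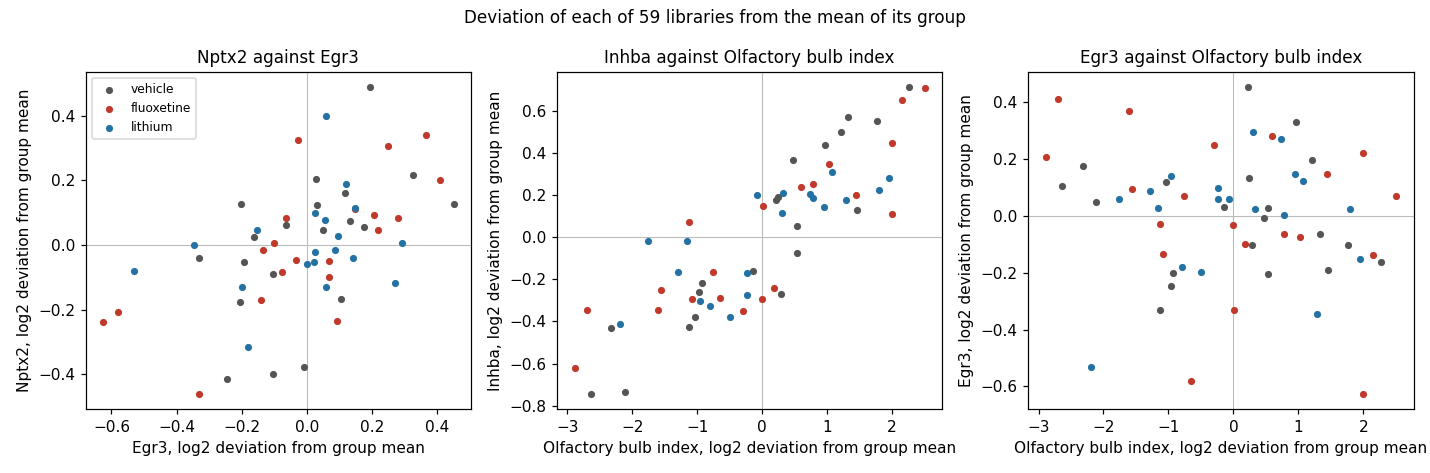
Deviation of each of 59 libraries from the mean of its group on the log2 scale, with 1 point per library coloured by drug, for Nptx2 against Egr3, Inhba against the olfactory bulb index and Egr3 against the index. The middle panel shows the narrow band of r = 0.858, the left panel r = 0.528 and the right panel no line, at r = -0.129.

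The third set is Nr4a2, Nr4a3 and Gadd45b, with Fosl2 in common with the second. Nr4a2 (chromosome 2, 57106830 to 57124003, minus strand) and Nr4a3 (chromosome 4, 48045153 to 48086447, plus strand) encode orphan nuclear receptors that act without a bound hormone. They correlated with each other at r = 0.671 (rho = 0.662, permutation p = 1e-05, adjusted 4.5e-05). Nr4a3 and Gadd45b had r = 0.578 (rho = 0.571, permutation p = 4e-05, adjusted 0.00015), Nr4a2 and Fosl2 0.669, Nr4a3 and Fosl2 0.573 and Nr4a2 and Gadd45b 0.421, with adjusted permutation p-values of 0.0073 or less. The last of the 14 pairs was Nr4a2 and Scg2 (r = 0.424, rho = 0.384, permutation p = 0.00784 and 0.0086, adjusted 0.0252 and 0.0276).

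Gadd45b and Nr4a3 moved with the rapid immediate early genes, at r = 0.744 and 0.678 against the mean of that list (rho = 0.72 and 0.641, permutation p = 1e-05, adjusted 0.0001). Nr4a2 (r = 0.435) and Fosl2 (0.431) also moved with that list (adjusted permutation p of 0.00637 or less for r and rho). Egr3 moved with the list of other later activity genes, at r = 0.67 (rho = 0.679, permutation p = 1e-05, adjusted 0.0001). So did Pcsk1 (r = 0.513), Nr4a3 (0.479), Gadd45b (0.425) and Nptx2 (0.409), with adjusted permutation p of 0.0219 or less. Nr4a3 and Gadd45b thus moved with both lists. Nr4a2, which also marks neurons of the claustrum and the deepest cortical layer, moved with markers of those cells at r = 0.761 (rho = 0.664, permutation p = 1e-05, adjusted 0.0001) and with oligodendrocyte markers at 0.606 (rho = 0.588, permutation p = 2e-05 and 3e-05, adjusted 0.00015 and 0.000245). In the arms the summed normalized count of the 9 claustrum and layer 6b markers had medians between 7388 in HT lithium and 9522 in WT vehicle mice. Beyond the fits with the bulb index, the part of tissue composition in these sets was not tested.

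Among all tested genes, those whose group-centred values were most like Egr3 included Homer1 (r = 0.771 over 59 libraries), a postsynaptic scaffold gene of the later activity list, Nlk (0.74), R3hdm2 (0.716) and Pdp1 (0.714). For Nptx2 they were Adam19 (0.692), Sgsm1 (0.681), Gpc1 (0.664), Scube1 (0.662) and Arhgef17 (0.65). No gene named here for Egr3 is among those named for Nptx2. With fluoxetine in WT mice, Homer1 differed by 0.40 (limma adjusted p = 0.0555), R3hdm2 by 0.17 (0.0394), Pdp1 by 0.12 (0.535) and Nlk by 0.09 (0.515). The Homer1 change was lower in females than in males in the main fit, with a sex by fluoxetine interaction of -0.93 ± 0.26 (SE, limma adjusted p = 0.0208). That interaction passed for 8.66% of all genes, and its count depended on the processing. It called 1438 genes in the main fit, 1 after removal of the GC trend and 557 to 2849 when 1 library was left out. WT fluoxetine females 1, 2 and 4, which enter it, are among the libraries set apart. Of the genes like Nptx2, Sgsm1 differed by 0.36 (8.85e-06), Scube1 by 0.34 (0.0111), Gpc1 by 0.26 (0.00766), Arhgef17 by 0.20 (0.00345) and Adam19 by 0.17 (0.187).

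Between females and males over the 6 arms, none of the 10 passed with limma, edgeR or DESeq2. With limma 2 of the 10 had an unadjusted p under 0.05, as did 1707 of all 16599 genes. After adjustment 0.217% of all genes passed with limma, 37 genes with edgeR and 70 with DESeq2. Nr4a2 had the largest difference, at 0.42 ± 0.16 higher in females (SE, 95% interval 0.10 to 0.74, limma adjusted p = 0.333), followed in unadjusted p by Nptx2 at 0.11 ± 0.05 (0.474). Egr3 differed by -0.05 (95% interval -0.18 to 0.08).

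None of the interactions with sex passed for any of the 10 with limma, edgeR or DESeq2. With limma the number with an unadjusted p under 0.05 was 1 for genotype under vehicle, 1 for fluoxetine in WT mice, 2 for fluoxetine in HT mice, 0 for lithium in WT mice and 2 for lithium in HT mice. Over all 16599 tested genes, that number was 1660, 4319, 881, 1467 and 2838 in the same order. After adjustment, 0.00602%, 8.66%, 0%, 0% and 0.012% of all genes passed with limma. With edgeR 0, 1431, 0, 0 and 1 genes passed, and with DESeq2 12, 1928, 5, 28 and 138. Gadd45b differed by -0.39 in HT females and 0.56 in HT males under fluoxetine, an interaction of -0.95 ± 0.27 (SE, limma adjusted p = 0.631). Inhba differed by 0.59 in HT females and -0.48 in HT males under lithium, an interaction of 1.07 ± 0.35 (SE, limma adjusted p = 0.151). The median bulb index in those groups was 1.35 in HT lithium females against 0.452 in HT vehicle females, and 0.164 in HT lithium males against 1.01 in HT vehicle males, so the index differed in the same direction as Inhba in each sex.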

How the data were processed

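Poly(A) RNA was prepared with a stranded TruSeq kit, per the labels' protocols. Per the submitters' processing notes, the authors used Salmon 0.11.2, the GRCm38 build, DESeq2 1.19.11 and R 3.6.0. Values in the deposited signal table are normalized counts, reads of a gene over its library's size factor (0.783 to 1.245). Dividing by each library's step gave whole numbers for 100.0% of values (within 0.001). In 5 libraries with a step near 1 this could not be told from rounding, so recovered reads serve only the edgeR and DESeq2 alternatives. No column was left out.

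Log2 of the normalized count plus 1 was tested for 16599 genes with a mean of at least 10, with limma 3.58.1 in R 4.3.3 (trend, robust), 12 group means, 47 residual degrees of freedom, two-sided, and Benjamini-Hochberg adjustment over all tested genes within each of 15 comparisons at 0.05. A fold is on the log2(value + 1) scale. Comparisons average the sexes unless a sex is named. The test was checked on simulated data.

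All 10 genes were named by rule, and of the other lists those genes that passed. The members and the lists were chosen with earlier results of these data known. Gene positions come from GENCODE on GRCm38. Alternatives were quantile normalization, pseudocounts of 0.5 and 5, no filter, only the compared groups, a replicate block, sva 3.50.0 with 2 surrogate variables, the bulb index, GC content, each sex, 6 libraries or each library left out, edgeR 4.0.16 and DESeq2 1.42.0. Removing the bulb index from the correlations was chosen after seeing the data. Depth was 22984556 to 35969254 reads, and no group's labels say that samples were pooled. Values of some genes are not reported here.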

Additional observations from a re-analysis of the deposited data

Results flagged for a closer look

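Of 120 sets of 1 gene in 1 group of 4 or 5 mice, 6 held a library far from the others, where chance flags about 1 in 20 groups. Egr3 was at 2867 normalized counts in WT lithium male 2, and its 4 companions ran from 3713 to 4021. Nr4a2 was at 1023 in HT vehicle female 5, against 354.4 to 541.7 in the other females of that group. Inhba was at 673.8 in HT fluoxetine male 5, against 336 to 433.3. Pcsk1 was at 1240 in HT lithium female 5, the library with the lowest mitochondrial share (2.70%), against 1893 to 2148, and at 2256 in HT lithium male 2, against 1615 to 1782. Gadd45b was at 542.5 in WT lithium male 4, against 291.3 to 349.7.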

How the results depend on the processing

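For fluoxetine in WT mice, 2 of the 10 genes passed, 5 with the bulb index as covariate (Dusp4, Fosl2 and Inhba added) and 4 with surrogate variables (Dusp4 and Pcsk1 added). Over all genes that comparison called 939 in the main fit and 3172 with surrogate variables. For lithium in WT mice, 0 passed, 1 after removal of the GC trend, 2 with only the compared groups, without the 6 libraries and with DESeq2, 3 with the bulb index and 4 with surrogate variables. Leaving out 1 library gave 0 to 2 there. Over all genes, lithium in WT mice called 2120 in the main fit and 4381 with surrogate variables. It called between 1562 and 2273 when 1 library was left out. For HT against WT under fluoxetine, 0 passed, and 1, Egr3, passed with quantile normalization, the bulb index, surrogate variables, without the 6 libraries, with edgeR and with DESeq2; leaving out 1 library gave 0 to 1 (without WT fluoxetine females 1 or 5, or male 5). For lithium in HT mice, the comparison by which Egr3 and Nptx2 were chosen, the number past the threshold is given as a description only, with nothing read from it: 3, then 5 with the bulb index and with surrogate variables, 0 without the GC trend and in females alone, and 0 to 5 when 1 library was left out (0 without HT vehicle male 5, 5 without HT vehicle female 5, 1 without HT lithium male 5, HT vehicle females 1 or 3 or HT vehicle male 1). Over all genes, lithium in HT mice called 3374 in the main fit, 5146 with surrogate variables and 1166 in females alone. It called between 2782 and 3578 when 1 library was left out. HT against WT under fluoxetine called 0 in the main fit and 212 with surrogate variables, and 0 to 112 when 1 library was left out. The cause of these changes was not tested. Pairs of genes that correlated numbered 14, and between 10 and 14 under the alternatives run. In the other comparisons the number of genes passed stayed at 0 under each alternative run.

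With the replicate number as a block, the number of the 10 genes that passed was 2 for fluoxetine and 0 for lithium in WT mice, as without it. Over all genes it called 947 against 939 for fluoxetine in WT mice. Same-numbered libraries had a mean correlation of -0.00106 over 319 pairs, against 0.000227 for other numbers, so the number was not used as a pairing. Counts over all genes moved more: fluoxetine in WT mice gave 402 in males alone and 3172 with surrogate variables, and between 477 and 1311 when 1 library was left out. The lowest normalized count of any of the 10 genes in any library was 138, for Dusp4, so no gene was near the filter of 10.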
